A study of Mus musculus with 6 samples.

Results

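A set of 10 genes of the Leydig cell and its steroid pathway were followed across whole testes of 6 mice: Star, Cyp11a1, Cyp17a1, Hsd3b1, Hsd3b6, Hsd17b3, Insl3, Lhcgr, Nr5a1 and Scarb1. They were chosen by name and matched to the Ensembl identifiers of the count tables through GENCODE mouse release 21 symbols, and all 10 of 10 were found among 55536 genes. The KOStra8 mice carried a floxed and a deleted Sel1L allele with Stra8-Cre, a recombinase driven by a promoter of male germ cells, which Leydig cells are not. The HETStra8 mice were their littermates. The deposited record gives them a floxed and a deleted allele without naming Cre, whereas the study pools that genotype with floxed/wild-type mice carrying Stra8-Cre, and no genotype is given for each mouse. All mice were 7 weeks old, each gave 1 poly(A)+ RNA library, and each group held 3 mice. The question was whether Leydig cell transcripts differ when SEL1L, an adaptor of ER-associated degradation, is removed from the germ cells beside them.

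Leydig cells lie between the seminiferous tubules and make testosterone in response to luteinizing hormone (LH). LH binds its receptor Lhcgr and raises cyclic AMP. Cholesterol, taken up in part through Scarb1, is moved into mitochondria by Star and cut to pregnenolone by Cyp11a1. The 3β-hydroxysteroid dehydrogenases, Cyp17a1 and Hsd17b3 then complete testosterone. Nr5a1 (SF-1) is a nuclear receptor that drives transcription of many of these genes, and Insl3 is a peptide hormone of the same cells that acts in testis descent. Because RNA came from the whole organ, fewer Leydig cells and less RNA per cell cannot be told apart in any value below.

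Libraries held 28875108 to 36526695 counts, and all positions are those of GRCm38. Levels are library-scaled counts (CPM) after TMM normalization, which corrects library size for composition, and errors are SD over 3 mice. Sel1l itself had 46.4 ± 3.59 CPM in HETStra8 and 22.2 ± 1.97 CPM in KOStra8, a log2 fold change of -1.07 with an edgeR adjusted p of 0.00061. Spermatid markers such as Prm1 and Tnp1 summed to 9008 to 10528 CPM, the level of a testis with late germ cells. One library stood apart. HETStra8 mouse 1 had the highest level of 25.4% of all 21465 genes tested and the lowest of 24.7%, against 13.3 to 17.4% for either in the other 5 mice. It also held transcripts of the epididymis markers Crisp1 and Adam7, and through them the summed level of 6 epididymis markers was 8.59 CPM there and 0.0822 to 0.515 CPM elsewhere. Crisp1 had 220 counts and Adam7 had 44 counts in that library, while Crisp1 had 0 to 11 and Adam7 0 in each other mouse. The rest of the list did not share this: Lcn5, Lcn8 and Lcn9 had 0 counts in HETStra8 mouse 1. Defb42 had 6 counts there and 12 in KOStra8 mouse 1. The fold changes of the 10 genes are therefore given with and without HETStra8 mouse 1, and so are the lists and the list genes whose call it changed.

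None of the 10 genes was called different between KOStra8 and HETStra8 testes. With the study's double cutoff, an adjusted p under 0.01 together with a fold of at least 2 (edgeR's quasi-likelihood test, Benjamini-Hochberg adjustment over 21465 genes), 0 of 10 were higher and 0 of 10 lower. Of all genes tested, 0.00466% passed it upward and 0.00466% downward. With an adjusted p of 0.05 and no fold limit the count was again 0 of 10, against 0.0186% of all genes higher and 0.00466% lower. At an unadjusted p of 0.05, Star was the single gene lower and none was higher, where 5.12% of all genes were lower and 7.13% higher. All 10 fold changes were below 0, with a median of -0.29 on the log2 scale, while 51.5% of all genes were below 0 and their median was -0.0094. Without HETStra8 mouse 1, 6 of 10 were below 0 and 4 above, the median was -0.10, and 50.9% of all genes were below 0. In that edgeR fit 0 of 10 had an unadjusted p under 0.05, where 3.42% of all genes were lower at it. By DESeq2 on all 6 mice, 3 of 10 (Star, Cyp11a1 and Nr5a1) had an unadjusted p under 0.05, all of them lower, where 4.6% of the same genes were lower. Fold changes over all genes followed GC content, at a Spearman rho of -0.46 over 21457 genes, a correlation across genes that vary together and not across mice. With offsets for GC content and length the median of the 10 was -0.21 and all 10 stayed below 0, and Nr5a1 was at -0.14, Insl3 at -0.13 and Lhcgr at -0.22.

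**Figure D1:**
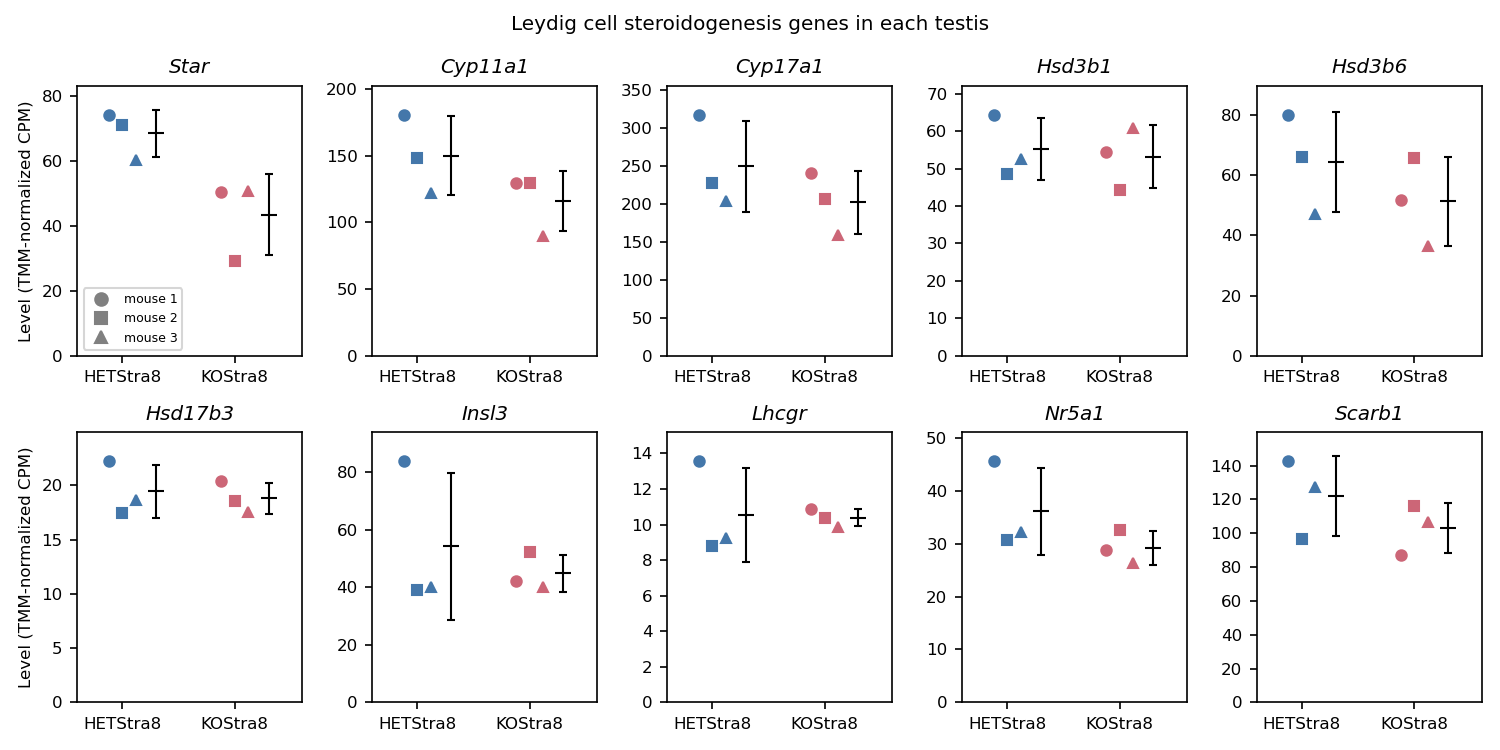
Level of each of the 10 genes in each testis, in TMM-normalized CPM on a linear axis from 0 with its own scale per panel. Points are mice, with the mouse number as symbol, and the bar beside them is the mean ± SD of 3 mice. HETStra8 mouse 1 was the highest of 6 mice for each of the 10 genes, and Star was the single gene whose groups did not overlap.

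Lipid uptake and transfer come first in the pathway. Star (chr8:25806555-25815982, plus strand), which carries cholesterol to the inner mitochondrial membrane, had 74.1, 70.8 and 60.2 CPM in HETStra8 mice 1, 2 and 3 and 50.3, 29.1 and 50.8 CPM in KOStra8 mice 1, 2 and 3. The groups did not overlap: the lowest HETStra8 mouse lay above the highest KOStra8 mouse, and KOStra8 mouse 2 lay far below the other 5. The mean was 68.4 ± 7.25 CPM in HETStra8 and 43.4 ± 12.4 CPM in KOStra8, so that KOStra8 held 63.5% of the HETStra8 level. The log2 fold change was -0.65 (SE 0.216, 95% interval -1.17 to -0.14). Its unadjusted p was 0.0202 and its adjusted p 0.326 in edgeR, and the two-sided exact permutation p was 0.1, the smallest that 3 mice against 3 can give. Groups without overlap were found for 8.43% of all genes in the lower direction and 9.33% in the higher direction, and for 1 and 0 of these 10 genes.

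The Star difference depended on the fit and on single mice. Its adjusted p was 0.00702 in DESeq2 and 0.000112 in edgeR with no filter on low counts, and between 0.263 and 0.691 in the other 13 alternatives. Its fold change stayed below the fold of 2 in all of them. Without KOStra8 mouse 2 it was -0.43, with an edgeR unadjusted p of 0.00191 and an adjusted p of 0.263. Without HETStra8 mouse 1 it was -0.59, with an unadjusted p of 0.119 and an adjusted p of 0.691. Set against the mean of the other 9 genes of the same mouse, Star stood at 0.05, 0.51 and 0.29 (log2) in the HETStra8 mice and at 0.00, -0.85 and 0.21 in the KOStra8 mice. On this relative scale the groups overlapped, since KOStra8 mouse 3 lay above HETStra8 mouse 1. The overlap came through HETStra8 mouse 1 alone, as HETStra8 mice 2 and 3 lay above every KOStra8 mouse. For Hsd17b3 and Lhcgr, each set against the mean of the other 9 genes, the groups did not overlap. Both stood higher in KOStra8, by 0.23 and 0.28 (log2), and the groups of the remaining genes overlapped. The two-sided exact permutation p was 0.1 for each, again the smallest possible. Their own log2 fold changes were -0.05 and -0.02, so the shift lay in the other genes of the set, Star among them. The share of all genes without overlap on this relative scale was not computed.

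Scarb1 (chr5:125277087-125341094, minus strand), the receptor that takes up cholesteryl ester from high-density lipoprotein, had 142, 96.5 and 127 CPM in the HETStra8 mice and 87.1, 116 and 106 CPM in the KOStra8 mice. The groups overlapped, with HETStra8 mouse 2 below 2 of the KOStra8 mice. The log2 fold change was -0.24 (SE 0.152, edgeR adjusted p = 0.555), and -0.12 without HETStra8 mouse 1.

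Among the enzymes, Cyp11a1 and Cyp17a1 varied together, at a Pearson r of 0.952 for log2 CPM over 6 mice. Hsd3b6 followed the same pattern, at 0.943 with Cyp11a1 and 0.845 with Cyp17a1. Cyp11a1 (chr9:58006411-58027023, plus strand), the side-chain cleavage enzyme, had 181, 148 and 122 CPM in the HETStra8 mice and 129, 129 and 89.8 CPM in the KOStra8 mice. Cyp17a1 (chr19:46667165-46673172, minus strand), which provides 17α-hydroxylase and 17,20-lyase activity, had 317, 227 and 203 CPM and 240.3, 207 and 158 CPM in the same order. For both genes HETStra8 mouse 1 was the highest and KOStra8 mouse 3 the lowest, and the groups overlapped. The log2 fold change was -0.37 for Cyp11a1 (SE 0.191, edgeR adjusted p = 0.486). It was -0.30 for Cyp17a1 (SE 0.230, edgeR adjusted p = 0.652). Without HETStra8 mouse 1 these values were -0.22 and -0.093. Cyp11a1 shared 2.06% of its 50-base stretches with other genes, mostly with the lincRNA Gm17322, which overlaps it on the same strand and had 2 to 21 counts per mouse.

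The gonadal 3β-hydroxysteroid dehydrogenases did not vary as a pair. Hsd3b1 (chr3:98852194-98859794, minus strand) had 64.3, 48.5 and 52.7 CPM in the HETStra8 mice and 54.4, 44.1 and 60.9 CPM in the KOStra8 mice. Hsd3b6 (chr3:98805504-98814443, minus strand), the form of adult mouse Leydig cells, had 80.0, 66.0 and 47.1 CPM and 51.6, 65.8 and 36.5 CPM. KOStra8 mouse 3 had the second highest Hsd3b1 and the lowest Hsd3b6 of the 6 mice, whereas KOStra8 mouse 2 had the lowest Hsd3b1. The ratio of Hsd3b6 CPM to Hsd3b1 CPM was 1.24, 1.36 and 0.895 in the HETStra8 mice and 0.949, 1.49 and 0.600 in the KOStra8 mice, so each group held mice above and below 1. Neither gene differed between groups by the test: the log2 fold change was -0.05 for Hsd3b1 (SE 0.130, edgeR adjusted p = 0.901) and -0.33 for Hsd3b6 (SE 0.293, edgeR adjusted p = 0.704). Without HETStra8 mouse 1 they were 0.07 and -0.14. Of 50-base stretches, 15.6% in Hsd3b6 and 4.86% in Hsd3b1 also occur in other genes, and the close relatives Hsd3b2 and Hsd3b3 had 0 to 2 counts in each mouse.

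The stretches just upstream of both genes are shown because the pair sits side by side on 1 chromosome and yet varied apart between mice. They are the 250 bases before the start in RefSeq (GRCm38.p6), read 5′ to 3′ on the minus strand, for Hsd3b1 at chr3:98859795-98860044 and for Hsd3b6 at chr3:98814444-98814693. No base is capitalised, because neither holds the motif described for Insl3 further on.
Hsd3b1: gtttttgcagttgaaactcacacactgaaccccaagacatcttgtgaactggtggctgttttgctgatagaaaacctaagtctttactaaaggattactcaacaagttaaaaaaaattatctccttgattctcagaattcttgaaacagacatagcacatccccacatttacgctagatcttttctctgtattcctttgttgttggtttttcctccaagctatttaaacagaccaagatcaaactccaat
Hsd3b6: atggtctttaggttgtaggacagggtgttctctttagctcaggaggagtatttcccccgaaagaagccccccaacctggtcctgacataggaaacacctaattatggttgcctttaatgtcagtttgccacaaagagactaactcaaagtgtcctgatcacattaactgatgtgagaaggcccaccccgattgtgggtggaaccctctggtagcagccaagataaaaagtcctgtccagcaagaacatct

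Hsd17b3 (chr13:64058266-64089230, minus strand), which reduces androstenedione to testosterone, was the steadiest of the enzymes. It had 22.2, 17.5 and 18.7 CPM in the HETStra8 mice and 20.4, 18.6 and 17.5 CPM in the KOStra8 mice. The coefficient of variation was 12.6% in HETStra8 and 7.59% in KOStra8. KOStra8 held 96.7% of the HETStra8 level, with a log2 fold change of -0.05 (95% interval -0.31 to 0.21, edgeR adjusted p = 0.905), and 0.06 without HETStra8 mouse 1.

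**Figure D2:**
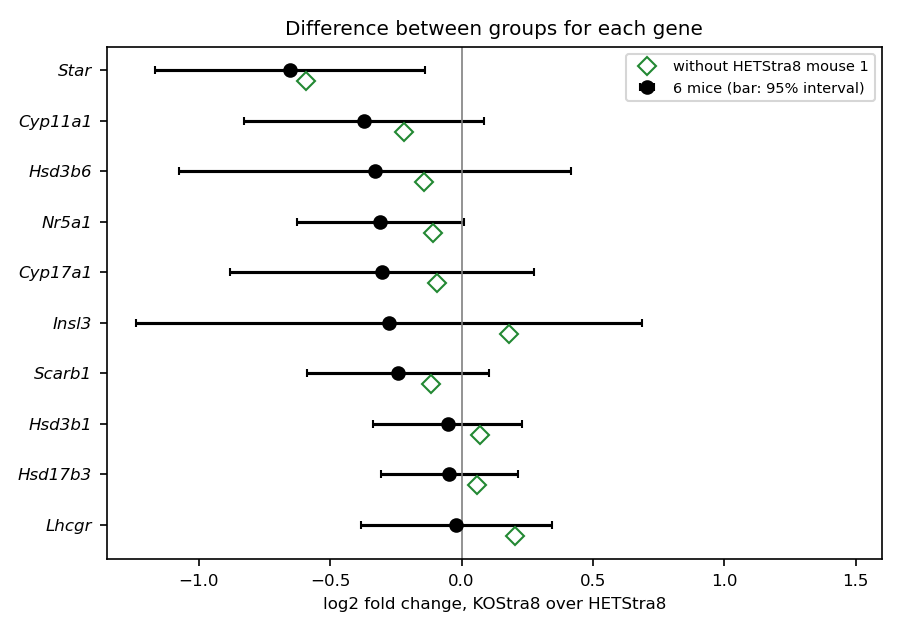
Log2 fold change of each gene, KOStra8 over HETStra8, on the horizontal axis. Filled circles with 95% interval bars come from all 6 mice, and open diamonds from the fit without HETStra8 mouse 1. Every circle lies below 0 and the Star interval alone excludes 0, while 4 diamonds (Insl3, Lhcgr, Hsd3b1 and Hsd17b3) lie above 0.

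The receptor, the transcription factor and the hormone are not enzymes and mark the cell itself. Lhcgr (chr17:88716481-88791990, minus strand), the LH receptor, had 13.6, 8.80 and 9.24 CPM in the HETStra8 mice and 10.9, 10.4 and 9.89 CPM in the KOStra8 mice. The KOStra8 mice lay close together, with a coefficient of variation of 4.64% against 24.9% in HETStra8, and all 3 lay between HETStra8 mouse 1 and the other two. The log2 fold change was -0.02 (95% interval -0.38 to 0.34, edgeR adjusted p = 0.974), and 0.20 without HETStra8 mouse 1.

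Nr5a1 (chr2:38692656-38714542, minus strand), which is also made by Sertoli cells, had 45.5, 30.6 and 32.2 CPM in the HETStra8 mice and 28.7, 32.5 and 26.3 CPM in the KOStra8 mice. HETStra8 mice 2 and 3 lay within the KOStra8 range, and HETStra8 mouse 1 lay above it. The log2 fold change was -0.31 (SE 0.146, unadjusted p = 0.0562 and adjusted p = 0.418 in edgeR), and -0.11 without that mouse. Nr5a1 overlaps the antisense gene Nr5a1os, and Scarb1 overlaps the same-strand gene model Gm42633. The strand setting of the counting is not given in the sources used here, so reads of such partners may not be separable.

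Insl3 (chr8:71689214-71690575, plus strand) was the most uneven of the 10 genes among the HETStra8 mice. It had 83.7, 38.9 and 40.2 CPM in the HETStra8 mice and 42.1, 52.2 and 40.2 CPM in the KOStra8 mice. HETStra8 mouse 1 held 1.96 times the mean of the other 5 mice, and the coefficient of variation was 47.0% in HETStra8 and 14.4% in KOStra8. The log2 fold change was -0.28 (SE 0.366, edgeR adjusted p = 0.809) over 6 mice and 0.18 without HETStra8 mouse 1 (edgeR adjusted p = 0.712). Its gene model lies inside the 3′ end of Jak3, a cytokine receptor kinase gene, on the same strand, and 61.9% of its 50-base stretches are also Jak3 transcript sequence. Jak3 had 542, 355 and 303 counts in the HETStra8 mice and 383, 269 and 281 in the KOStra8 mice, so it too was highest in HETStra8 mouse 1. How reads common to both genes were assigned is not given in the sources used here, and the level of Insl3 is uncertain by that share.

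The bases upstream of Insl3 are printed because they alone, among the listed promoters of the 10 genes, held a shortened form of the sequence that Nr5a1 is known to bind. RefSeq (GRCm38.p6) promoters were listed for 6 of the 10 genes, with 7 starts. The 8-base forms CAAGGTCA and CAAGGCCA, searched on both strands of the 250 bases before each start, were in 0 of these 7 and in 3.28% of 32851 promoters of all genes. Their first 7 bases, CAAGGTC and CAAGGCC, were searched after the longer forms gave no match, and were in 1 of 7 and in 8.28% of all promoters. Every promoter with an 8-base match also holds the 7-base form it contains. The matches begin 137 and 57 bases before the RefSeq start of Insl3 and are in capitals below. The stretch is chr8:71689002-71689213 on the plus strand and ends where the GENCODE gene model begins. A match of letters is a description and says nothing of binding in these testes.
Insl3: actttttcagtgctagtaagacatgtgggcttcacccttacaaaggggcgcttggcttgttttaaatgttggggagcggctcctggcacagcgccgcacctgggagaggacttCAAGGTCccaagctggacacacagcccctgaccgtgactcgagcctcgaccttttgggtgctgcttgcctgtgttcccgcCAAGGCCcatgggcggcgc

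Levels could be ordered between genes only per length, as CPM divided by exon length in kilobases (RPKM) averaged over 6 mice. Cyp17a1 (81.4 RPKM) and Insl3 (79.5 RPKM) were the highest. Hsd3b6 (32.1 RPKM), Hsd3b1 (29.2 RPKM) and Cyp11a1 (27.7 RPKM) followed. Hsd17b3 (13.8 RPKM), Star (13.6 RPKM) and Scarb1 (13.3 RPKM) formed the next step, then Nr5a1 (7.70 RPKM) and Lhcgr (1.37 RPKM). Within each of the first 3 steps neighbours could not be ordered, the upper gene being above the lower in 3 of 6 mice. Where 2 steps met, and between Nr5a1 and Lhcgr, the upper gene was above in 6 of 6 mice, though the ranges of Scarb1 and Nr5a1 overlapped. The length used mattered: by the longest transcript instead of the union of exons, Scarb1 went from 13.3 to 36.4 RPKM (rank 4) and Cyp11a1 from 27.7 to 38.7 RPKM (rank 3).

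Much of the variation shared by the 10 genes came with a single library. HETStra8 mouse 1 was the highest of 6 mice for 10 of 10 genes, by 1.20 times the mean of the other 5 for Hsd17b3 up to 1.96 times for Insl3. The summed level was 1023 CPM in that mouse, 753 and 712 CPM in the other HETStra8 mice, and 715, 705 and 597 CPM in the KOStra8 mice. KOStra8 mouse 3 was the lowest, and was the minimum of 4 of the 10 genes. Over 6 mice, 44 of the 45 gene pairs had a positive Pearson correlation of log2 CPM, with a median of 0.53. Over the 5 mice left without HETStra8 mouse 1, 24 of 45 were positive and the median was 0.07. The points share library, depth and normalization, and the values are a description of these few mice.

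**Figure D3:**
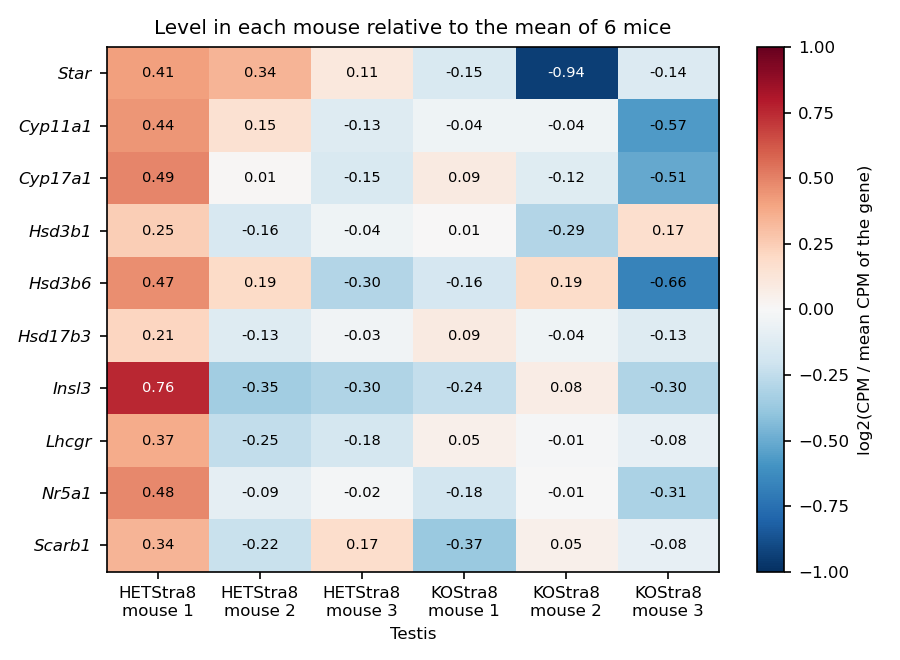
Level of each gene (rows) in each testis (columns) as log2 of its CPM over the mean CPM of that gene in 6 mice, with red above and blue below the mean. The column of HETStra8 mouse 1 is above the mean for all 10 genes, the KOStra8 mouse 2 value of Star is the lowest entry, and in KOStra8 mouse 3 Hsd3b1 lies above the mean while Hsd3b6 lies below it.

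The genes whose pattern over the 6 mice was most like the mean of the 10 were Lasp1, Dctn5, Tesmin, Zfp746 and Tbc1d9b, with Pearson r between 0.993 and 0.995 among 10003 genes of at least 10 CPM. All 5 were highest in HETStra8 mouse 1, and 506 of the 10003 had an r over 0.9. Tesmin, a transcript of spermatocytes, had 282 CPM in that mouse, 1.29 times the mean of the other 5.

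Other lists of the pathway are given as counts, since they were chosen with results of these data known, and over the 6 mice no gene of any of them reached an adjusted p of 0.05. Of 15 genes of cholesterol supply and transfer, 13 had fold changes below 0 and 2 above, with 2 lower and 2 higher at an unadjusted p of 0.05 and a median of -0.10. Tspo, an outer mitochondrial membrane protein, was at -0.62 (3.94 ± 0.858 and 2.57 ± 0.175 CPM in HETStra8 and KOStra8), and Lipa, the lysosomal lipase, at -0.40. Abca1, which exports cholesterol, was at 0.47 (52.3 ± 12.7 and 72.5 ± 10.8 CPM) and Acbd3 at 0.18. The most abundant, Lipe, the hormone-sensitive lipase, and Gramd1b, a sterol transfer protein, were at -0.13 and -0.03. The list had 8 below 0 and 7 above without HETStra8 mouse 1. Tspo was then at -0.42, Lipa at -0.28 and Acbd3 at 0.14, each with an unadjusted p over 0.05. Abca1 had an edgeR adjusted p of 0.353 over 6 mice and 0.0367, at 0.68, without that mouse. With offsets for GC content and length over 6 mice Abca1 was at 0.39, with an adjusted p of 0.792.

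Of 23 redox partners and other steroid enzymes, 22 were found and 15 were tested, 10 below 0 and 5 above, with a median of -0.07. Por, the reductase that passes electrons to Cyp17a1, had 894, 922 and 887 counts in the HETStra8 mice and 731, 588 and 732 in the KOStra8 mice. That was 27.5 ± 0.915 against 20.4 ± 0.451 CPM, without overlap, at a log2 fold change of -0.43 (edgeR unadjusted p = 0.000673, adjusted p = 0.135). It stood at -0.40 without HETStra8 mouse 1 (edgeR unadjusted p = 0.00171, adjusted p = 0.196). With the GC and length offsets over 6 mice it was at -0.27 (edgeR unadjusted p = 0.0102, adjusted p = 0.485). Akr1c14, a 3α-hydroxysteroid dehydrogenase, was at 0.78 on 23 to 101 counts per mouse and was the single gene of the list higher at an unadjusted p of 0.05, as Por was the single one lower. The 23 counts were those of HETStra8 mouse 1. Without that mouse Akr1c14 was at 0.46 (edgeR unadjusted p = 0.161), and with the offsets at 0.50 (unadjusted p = 0.17). The list had 9 below 0 and 6 above without HETStra8 mouse 1. Sult1e1 was then at 1.07 (edgeR unadjusted p = 0.00272, adjusted p = 0.226), against 0.69 (edgeR unadjusted p = 0.0532) over 6 mice. With the offsets Sult1e1 was at 0.34 (edgeR unadjusted p = 0.373). The most abundant, Cyb5b and Hsd17b4, were at 0.11 and -0.07.

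Of 26 genes of LH signalling and transcription factors, 15 were below 0 and 11 above, with 2 lower and 3 higher at an unadjusted p of 0.05 and a median of -0.09. Prlr, the prolactin receptor, was at 0.55, with 18.8 ± 2.10 CPM in HETStra8 and 27.5 ± 4.49 CPM in KOStra8 (edgeR adjusted p = 0.138). Creb1, a cyclic AMP-responsive transcription factor, was at 0.39 and Lhx9 at 0.72. Gata4, a gonadal transcription factor, was at -0.29 and Prkaca, the catalytic subunit of protein kinase A, at -0.19. With GC and length offsets Prlr was at 0.21, Creb1 at 0.09 and Gata4 at -0.14, and none of these 5 had an unadjusted p under 0.05. When HETStra8 mouse 1 was left out the list had 17 below 0 and 9 above. Prkaca was then at -0.14 with an edgeR unadjusted p of 0.108. The other 4 kept an unadjusted p under 0.05 in that fit. Prlr was at 0.64 (edgeR unadjusted p = 0.000196, adjusted p = 0.0678) and Creb1 at 0.38 (edgeR unadjusted p = 0.0134). Lhx9 was at 0.74 (edgeR unadjusted p = 0.0421) and Gata4 at -0.32 (edgeR unadjusted p = 0.0175). The most abundant, Prkar1a and Crem, were at -0.12 and 0.07.

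Of 9 receptor and hormone partners, 8 were tested, 6 below 0 and 2 above, with a median of -0.16. Dhh, the hedgehog ligand that Sertoli cells send to Leydig cells, was at -0.43 (13.8 ± 1.52 and 10.2 ± 0.718 CPM, edgeR adjusted p = 0.245) and was the single gene of the list at an unadjusted p of 0.05. Inha, the inhibin alpha subunit and the most abundant of the list, was at -0.19. Without HETStra8 mouse 1 the list again had 6 below 0 and 2 above, at a median of -0.10. Dhh was then at -0.34 (edgeR unadjusted p = 0.0310, adjusted p = 0.510). With the GC and length offsets over 6 mice Dhh was at -0.30 (edgeR unadjusted p = 0.0275, adjusted p = 0.581).

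Markers of the cell types in the organ were read beside these values, and over the 6 mice no marker passed an adjusted p of 0.05. Of 9 other Leydig cell markers tested, 6 were below 0 and 3 above at a median of -0.03, and the 3 at an unadjusted p of 0.05 (Prlr, Akr1c14 and Vcam1 at 0.23) were all above. With the GC and length offsets none of these 3 had an unadjusted p under 0.05 in edgeR, and Vcam1 was at 0.0047. The summed level of the list was 643, 529 and 501 CPM in HETStra8 and 569, 520.5 and 539 CPM in KOStra8. Most of that sum was Gramd1b, which is also in the cholesterol list, with 333 ± 32.5 CPM in HETStra8 and 325 ± 11.8 CPM in KOStra8. Without HETStra8 mouse 1, 7 of these 9 were above 0 at a median of 0.19. Fetal Leydig and adrenal cortex genes were at or near 0: Cyp11b1 and Cyp11b2 had 0 counts in each mouse, Mc2r had 1 count in 1 mouse, and 4 of 7 were tested, all above 0 and none at an unadjusted p of 0.05. The median of these 4 was 0.24, and 0.46 without HETStra8 mouse 1, with all 4 still above 0.

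All 10 Sertoli cell markers were below 0, with a median of -0.17 and 2 at an unadjusted p of 0.05 (Dhh and Rhox5). Their summed level was 274 to 301 CPM in HETStra8 and 247 to 264 CPM in KOStra8, without overlap, and 8 of 10 were below 0 without HETStra8 mouse 1. Of the 10, 4 had groups without overlap, all lower in KOStra8, as had 8.43% of all genes. At an unadjusted p of 0.05 in edgeR, 5.12% of all genes were lower. All 6 peritubular myoid markers were below 0 at a median of -0.15, with summed levels of 362 to 440.1 and 350.1 to 387 CPM. Des was the 1 myoid marker at an unadjusted p of 0.05, at -0.41 (edgeR unadjusted p = 0.042). The myoid median was -0.017, with 5 of 6 below 0, when HETStra8 mouse 1 was left out. In that fit Des was at -0.22 (edgeR unadjusted p = 0.245). Of 8 macrophage markers 7 were below 0 at a median of -0.36 and 2 (Cd68 and C1qb) had an unadjusted p of 0.05, with summed levels of 78.4 to 91.1 and 67.8 to 93.3 CPM. Of the 8 macrophage markers, 4 had groups without overlap, all lower in KOStra8, beside the 8.43% of all genes. In the fit lacking HETStra8 mouse 1, 6 of 8 were below 0 at a median of -0.30. Cd68 was then at -0.73 (edgeR unadjusted p = 0.0415) and C1qb at -0.28 (edgeR unadjusted p = 0.115). With the GC and length offsets over 6 mice their edgeR unadjusted p was 0.0635 and 0.147. Stromal progenitor markers were 5 of 6 above 0 (median 0.21), and endothelial markers 3 of 6 (median -0.06). Spermatogonia, spermatocyte and spermatid markers were each 3 of 6 above 0, with medians of -0.0058, 0.06 and 0.0095. Without HETStra8 mouse 1, 4 of 6 stromal, 3 of 6 endothelial and 3 of 6 spermatogonia markers were above 0. So were 4 of 6 spermatocyte and 5 of 6 spermatid markers in that fit. The summed spermatocyte level was 834 to 1016 CPM in HETStra8 and 1034 to 1093 CPM in KOStra8, without overlap. That gap lay mostly in Sycp1 (125 ± 57.6 and 246 ± 16.3 CPM) and Sycp3 (104 ± 36.3 and 146 ± 16.1 CPM), and with the GC and length offsets their log2 fold changes were 0.58 and 0.05. Sycp1 was at 0.97 (edgeR unadjusted p = 0.0615) over 6 mice and at 0.68 (edgeR unadjusted p = 0.0279) without HETStra8 mouse 1. The 3 blood markers were below 0 at a median of -0.17, and of -0.35 without HETStra8 mouse 1. None of the 6 epididymis markers had enough counts to be tested. The part of any of these cell types in the levels of the 10 genes was not tested.

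**Figure D4:**
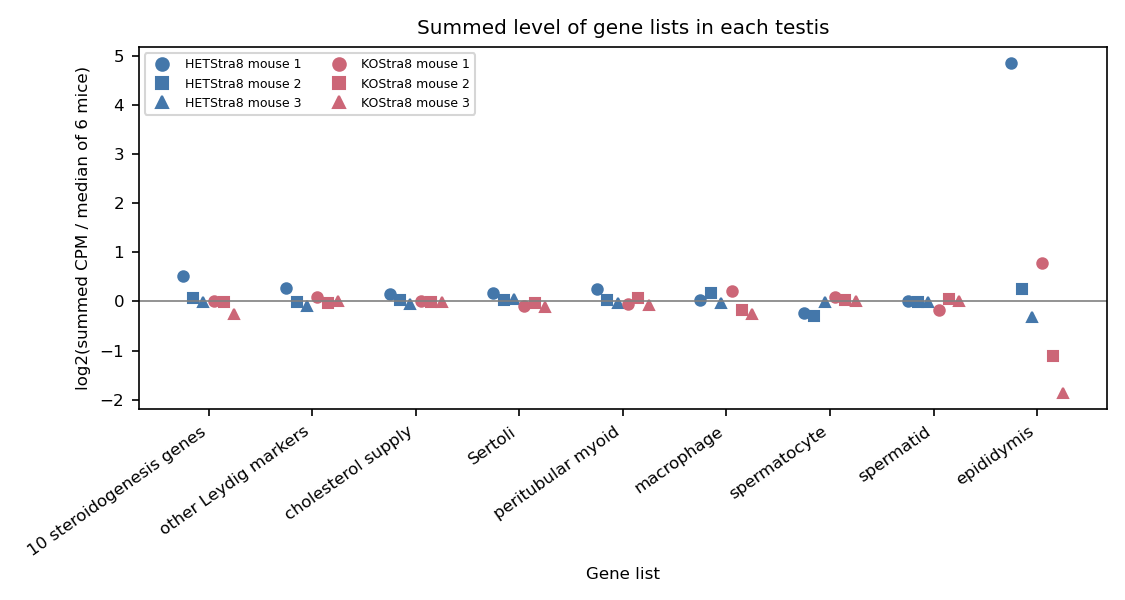
Summed CPM of each gene list in each testis, as log2 over the median of 6 mice, with colour for group and symbol for mouse number. HETStra8 mouse 1 is the highest mouse for the 10 steroidogenesis genes, other Leydig markers, cholesterol supply, and Sertoli and peritubular myoid markers. For epididymis markers it lies far above the other mice through Crisp1 and Adam7, at 8.59 CPM against 0.0822 to 0.515 CPM.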

How the data were processed

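Testis RNA of 3 KOStra8 and 3 HETStra8 mice was analysed, with 1 library per mouse and groups taken from the sample titles. Libraries were poly(A)+, directional and paired-end. For each mouse the deposited table holds raw counts, whole numbers of reads per Ensembl gene, which the authors did not normalize. The submitters' processing notes name STAR 2.7.1a, featureCounts 1.6.0, HTSeq and StringTie 2.0.4 with mm10 and GRCm38. Which of them made the counts, and with what strand setting, is not given in the sources used here. Totals lay between 28875108 and 36526695 counts. Each library came from its own mouse, and p-values measure the spread between these mice.

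Counts were fitted over all genes in R 4.3.3 with edgeR 4.0.16: filterByExpr (21465 genes kept), TMM, a robust quasi-likelihood fit with genotype alone and a two-sided test with Benjamini-Hochberg adjustment. Cutoffs were the study's fold of 2 and adjusted p of 0.01. Log2 CPM used a prior count of 2. RPKM divided CPM by the exon union of GENCODE mouse release 21. Shared sequence is the share of 50-base stretches of a gene's transcripts found in transcripts of another gene.

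The alternatives were DESeq2's size factors, library totals, no filter, at least 10 counts in every sample, DESeq2 1.42.0, limma-voom (limma 3.58.1), the replicate block, GC and length offsets (loess span 0.3), each mouse left out, other cutoffs, and transcript length.

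The 10 genes and all lists were chosen with earlier results of these data known. Sel1l is named as the targeted gene. From each pathway list the text names genes at an adjusted p of 0.05, up to 3 per direction with the smallest unadjusted p under 0.05, and the 2 most abundant. A result under this rule is not reported here. It also names the 5 genes most correlated with the mean of the 10. Jak3, Gm17322, Nr5a1os, Gm42633, Hsd3b2, Hsd3b3, Soat1, Sult1e1 and the single markers, Sycp1 and Sycp3 among them, were named after their values were seen.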

Additional observations from a re-analysis of the deposited data

How the results depend on the processing

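No alternative called any of the 10 genes at both cutoffs, and the median fold change of the 10 stayed below 0 in all 15 alternative fits, from -0.398 to -0.101 with 1 mouse left out (lowest without HETStra8 mouse 3, nearest 0 without HETStra8 mouse 1). Over all genes, 1 was called higher and 1 lower in the main edgeR fit. The study reports more genes in each direction at these cutoffs, and names no tool for that comparison. The count higher was 22 with no filter, 5 in DESeq2, 4 with the replicate block, 4 at an adjusted p of 0.05, 1530 at an unadjusted p of 0.05, and 1 to 42 with a mouse left out (5 without HETStra8 mouse 1, 42 without HETStra8 mouse 3). The count lower was 17 with no filter, 1100 at an unadjusted p of 0.05, and 0 to 4 with a mouse left out (0 without KOStra8 mouse 2 or 3, 2 without HETStra8 mouse 2 or 3, 3 without KOStra8 mouse 1, 4 without HETStra8 mouse 1). Of the 10 genes, 1 (Star) was lower at an unadjusted p of 0.05. The cause of these changes was not tested.

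Single fold changes turned sign for 4 genes. Leaving out a mouse moved Hsd3b1 between -0.162 and 0.072, Hsd17b3 between -0.119 and 0.0572, Insl3 between -0.467 and 0.179 and Lhcgr between -0.135 and 0.202, and Lhcgr was 0.011 in limma-voom. The other 6 genes kept their direction in all 15. Cyp11a1 reached an adjusted p of 0.02 with no filter, and its adjusted p went up to 0.836.

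The sample titles do not say whether mouse numbers pair the samples. Same-numbered mice of the groups had deviations correlated at -0.07, -0.12 and 0.18 over 13124 genes. Differently numbered mice ranged from -0.19 to 0.25. With 3 mice a group these values cannot decide whether the samples were paired. With the replicate block, 5 of the 10 genes were lower at an unadjusted p of 0.05, as were 4.67% of all genes, and the smallest adjusted p was 0.0625 (Cyp11a1), their median was -0.263, and Lhcgr was 0.00315. With 3 mice a group and counts of 296 to 9956 per mouse, the spread between mice limits these comparisons, as the 95% intervals show.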

Other observations

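The width of the interval differs between the 10 genes. It was narrowest for Hsd17b3, from -0.31 to 0.21 on the log2 scale, and for Hsd3b1, from -0.34 to 0.23, and widest for Insl3, from -1.24 to 0.69, with Hsd3b6 between -1.07 and 0.42. The intervals of Star, Insl3 and Hsd3b6 include a fold of 2 lower in KOStra8, and those of the other 7 genes do not.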
